A study of Mus musculus with 18 samples.

Results

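Isoliquiritigenin, a plant chalcone, had been added to enzalutamide-treated co-cultures of T23 tumour cells and fibroblasts, and its effect was read here by RNA sequencing across all measured genes. The comparison used 6 of the 18 libraries of the series, taken by their labels: 3 libraries of T23 cells with fibroblasts, enzalutamide and isoliquiritigenin (the combination libraries) and 3 libraries of T23 cells with fibroblasts and enzalutamide (the enzalutamide libraries). All 6 therefore share T23 cells, fibroblasts and enzalutamide, and differ by label only in isoliquiritigenin. A further 3 libraries of T23 cells with fibroblasts and neither agent (the untreated libraries) are given beside them. T23 is a mouse prostate adenocarcinoma line. Neither the dose, the time nor the vehicle is given in the labels, and they do not say whether replicates were separate cultures. The p-values of single genes therefore set a difference against the spread between replicate libraries, estimated over all 18 libraries, and that spread may be technical.

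The fibroblasts limit the model. Sample descriptions of the combination and enzalutamide groups name fibroblasts of human origin, whereas the titles of all 3 groups carry the same name, FIBROB6, which in the untreated group goes with wild-type fibroblasts. Only mouse genes were counted. A library holds RNA of the whole culture, so fewer cells of a type and less RNA per cell cannot be told apart, nor can a change in T23 cells and one in fibroblasts. Titles end in an index that restarts within the enzalutamide group. Enzalutamide replicate 1 falls in the first run of the index together with the untreated libraries, and enzalutamide replicates 2 and 3 and all combination libraries fall in the second. What the index stands for is not stated.

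As background, enzalutamide is an antiandrogen used against prostate cancer, and some tumours under such treatment take on neuroendocrine features. Isoliquiritigenin, found in liquorice root, carries an electrophilic unsaturated ketone and has been reported to bind the endoplasmic reticulum chaperone GRP78, encoded by Hspa5. Electrophiles of this kind are known to release the antioxidant factor NRF2 from its repressor KEAP1, and many plant flavonoids bind the aryl hydrocarbon receptor.

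Counts per library totalled 20.9 to 26.7 M in the combination group and 19.8 to 20.9 M in the enzalutamide group. Levels below are counts per M counts of a library (CPM) after TMM scaling, not divided by gene length, so they compare a gene between libraries and not 1 gene with another. Means are given ± SD over the 3 libraries of a group. Where no read was counted, up to 3 reads are allowed, equal to 0.112 to 0.151 CPM in these 6 libraries, counting error only. The share of counts from mitochondrial genes was 2.80, 3.68 and 3.77% in the combination libraries, against 1.55, 2.71 and 2.70% in the enzalutamide libraries. The groups do not overlap, but the difference of 1.10 percentage points has an exact two-sided permutation p of 0.1, the smallest that 3 against 3 libraries can give. The first principal component of the 6 libraries held 48.6% of the variance and separated the groups. Whether the mitochondrial share plays a part in the results below was not tested.

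Of 13600 genes tested, 3599 (26.5%) differed between the combination and the enzalutamide libraries at an adjusted p under 0.05, by edgeR's quasi-likelihood test with Benjamini-Hochberg adjustment over all 13600, the rule for every adjusted p and every called gene below. Isoliquiritigenin was accompanied by 1754 higher genes (12.9%) and 1845 lower ones (13.6%). Every count of called list members below is to be set against these shares of all genes. Most changes were small: 278 genes (2.04%) were called with at least a 2-fold difference, 156 higher (1.15%) and 122 lower (0.897%), and the median size of a called log2 fold change was 0.35. In 5503 genes (40.5%) the CPM ranges of both groups did not overlap, 2703 of them higher (19.9%) and 2800 lower (20.6%). Over all tested genes the median log2 fold change was -9.67e-05. Among 33 pathway lists, the ones with the lowest medians held hypoxia and glycolysis genes, mitotic genes and NF-kB targets. Lists of BMP, metal, estrogen, interferon, aryl hydrocarbon receptor, lysosomal and sterol genes had positive medians.

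**Figure D1:**
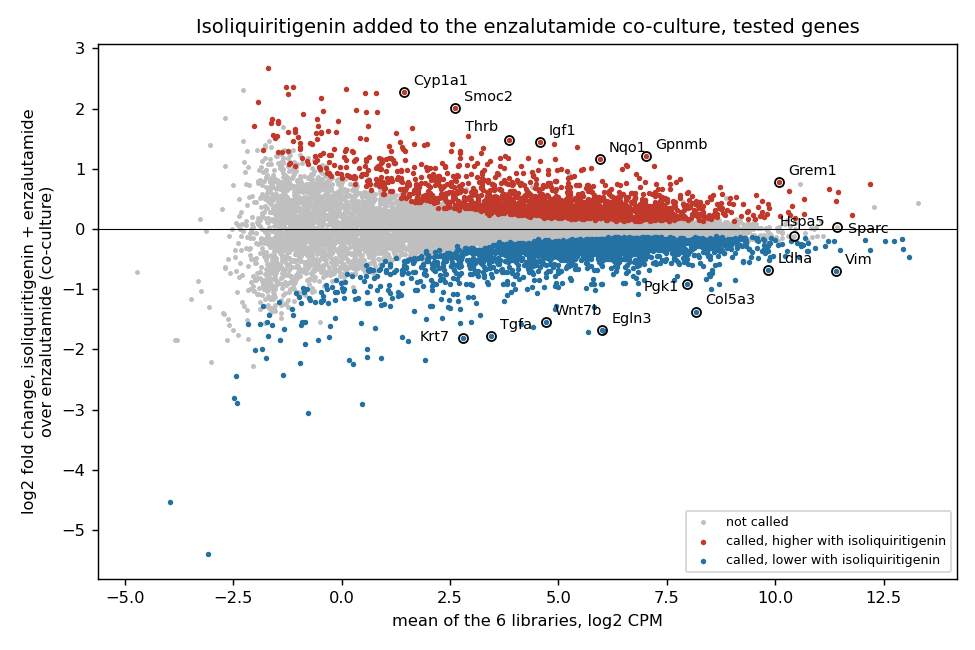
Log2 fold change of each of the 13600 tested genes (combination over enzalutamide libraries, vertical axis) against its mean level over the 6 libraries (log2 CPM, horizontal axis). Red points are the 1754 called higher, blue points the 1845 called lower and grey points the rest, with Hspa5 and Sparc among the grey ones.

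**Figure D2:**
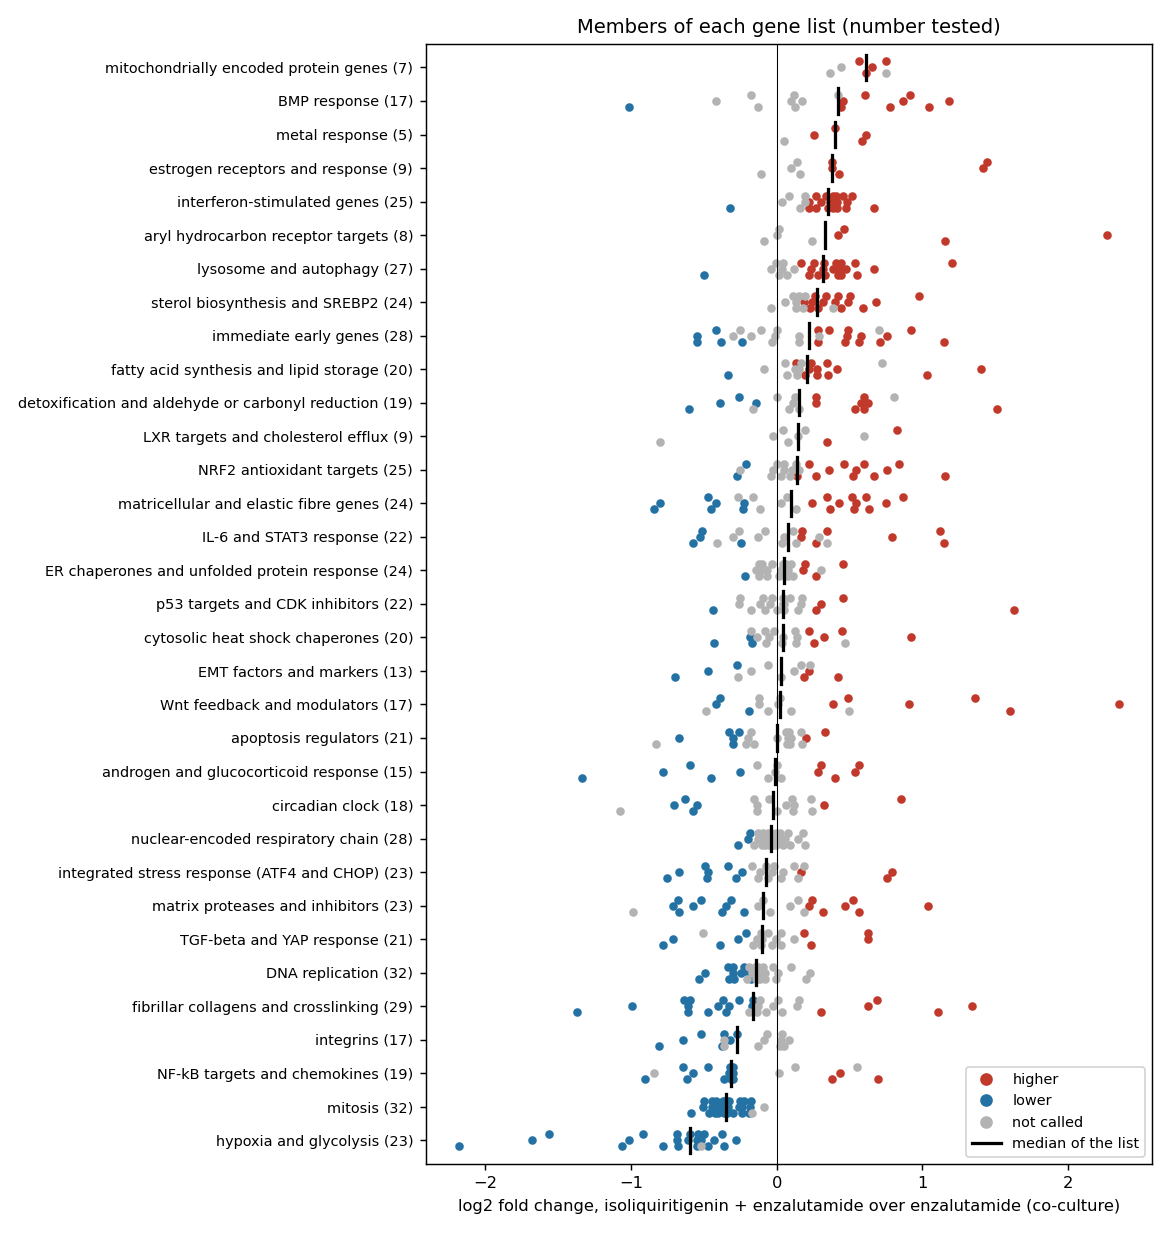
Log2 fold change of each tested member of 33 gene lists (points, red called higher, blue called lower, grey not called), with the list median as a black bar. Lists run by median, with hypoxia and glycolysis (22 of 23 lower) at the bottom and 7 mitochondrially encoded genes at the top.

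Glycolytic enzymes and hypoxia-inducible genes fell together. Of 23 tested members of this list, 22 were called lower and none higher, with a median log2 fold change of -0.59, where 13.6% of all genes were called lower. Cells short of oxygen stabilise the hypoxia-inducible factors, which bind the core sequence ACGTG and raise glucose uptake, glycolysis and the prolyl hydroxylases that feed back on them. The promoter of Pgk1, which encodes the glycolytic enzyme phosphoglycerate kinase, is shown because, as with the promoters further on, its gene is the called member with the smallest p whose window holds a match, so it does not stand for the list. It holds the core on both strands, at 150 and 131 bases before the start. It comes from RefSeq (GRCm38.p6, chrX:106186850-106187149, plus strand), with ACGTG and its reverse complement in capitals.
Pgk1: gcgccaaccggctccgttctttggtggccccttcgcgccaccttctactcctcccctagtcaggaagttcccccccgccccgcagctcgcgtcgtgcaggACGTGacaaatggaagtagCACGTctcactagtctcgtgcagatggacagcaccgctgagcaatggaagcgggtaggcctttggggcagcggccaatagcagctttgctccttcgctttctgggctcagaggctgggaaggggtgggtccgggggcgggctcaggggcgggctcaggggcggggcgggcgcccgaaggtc
The core was found on either strand in 12 of 22 windows of list members (54.5%), from 250 bases before to 50 after the start, and in 26.0% of 10014 windows of tested genes. Of those 12 members 11 were called lower, against 22 of 23 in the whole list. Each list was picked for its pathway, so such a share, here and below, describes the list and does not bear on isoliquiritigenin.

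Pgk1 itself had 197, 150.0 and 174 CPM in the combination libraries, against 357, 312 and 316 CPM in the enzalutamide libraries. It was 1.89-fold lower (log2 fold change -0.92 ± 0.08 SE, adjusted p 2.52e-08), and the highest combination library stayed under the lowest enzalutamide library. Ldha, which reduces pyruvate to lactate, had 743, 629 and 747 CPM in the combination libraries, against 1140.5, 1096 and 1159 CPM in the enzalutamide libraries (log2 fold change -0.68 ± 0.07 SE, adjusted p 8.05e-08). Its groups were equally separate. Egln3, a prolyl hydroxylase that marks hypoxia-inducible factors for destruction, had 36, 19.6 and 36.1 CPM in the combination libraries, against 91.1, 91.9 and 113 CPM in the enzalutamide libraries (log2 fold change -1.68 ± 0.17 SE, adjusted p 6.9e-08). Combination replicate 2 was the lowest library for each of these 3 genes. Ndrg1, a stress gene long used as a hypoxia marker, had 79.1, 71.6 and 80.5 CPM in the combination libraries, against 127, 125 and 146 CPM in the enzalutamide libraries (log2 fold change -0.78 ± 0.07 SE, adjusted p 1.6e-08), and Ankrd37, a small ankyrin-repeat target of the same factors, had 4.88, 1.56 and 3.37 CPM in the combination libraries, against 10.7, 8.8 and 10.3 CPM in the enzalutamide libraries (log2 fold change -1.56 ± 0.24 SE, adjusted p 2.68e-05). Vegfa, the angiogenic growth factor, averaged 86.9 ± 11.1 CPM in the combination libraries and 127 ± 13.5 CPM in the enzalutamide libraries (SD, n = 3 each, log2 fold change -0.55 ± 0.09 SE, adjusted p 9.1e-05). The glucose transporter gene Slc2a1, hexokinase Hk2, aldolase Aldoa, enolase Eno1, pyruvate kinase Pkm, pyruvate dehydrogenase kinase Pdk1, the mitophagy gene Bnip3 and the collagen prolyl hydroxylases P4ha1 and P4ha2 were also called lower. Car9, the membrane carbonic anhydrase, was the only tested member not called (log2 fold change -0.52, adjusted p 0.252). Pgk1, Ldha, Eno1 and Tpi1 have processed pseudogenes that could share reads.

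In the enzalutamide against the untreated libraries, 977 genes were called (7.18%), 503 higher (3.7%) and 474 lower (3.49%), and in the combination against the untreated libraries 5324 (39.1%), 2614 higher (19.2%) and 2710 lower (19.9%). These comparisons share libraries with the main one and are given as values only. The run of the title index nearly coincides with the enzalutamide comparison, since all untreated libraries and enzalutamide replicate 1 fall in the first run. It coincides fully with the combination comparison, since all combination libraries fall in the second run. With the run as a term the counts were 214 and 1849, where the run is estimated only within the enzalutamide group. This limit holds for every comparison with the untreated libraries below. Hypoxia and glycolysis genes were lower in 17 of 23 with enzalutamide and in 23 of 23 with the combination, each relative to the untreated libraries. Pgk1 averaged 174 ± 23.7 CPM in the combination libraries, 328 ± 25.2 CPM in the enzalutamide libraries and 484 ± 48.7 CPM in the untreated libraries, and Egln3 averaged 30.6 ± 9.48 CPM in the combination libraries, 98.7 ± 12.4 CPM in the enzalutamide libraries and 158 ± 20.5 CPM in the untreated libraries (SD, n = 3 each). Every pair of these groups was separate for both genes, with the combination libraries lowest. Within the first run, enzalutamide replicate 1 had 357 CPM of Pgk1 and 91.1 CPM of Egln3, against at least 439.6 CPM and 141 CPM in the untreated libraries.

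Genes of mitosis formed the second group that fell. Of 32 tested members, 30 were called lower and none higher, with a median log2 fold change of -0.35. Mitotic genes are repressed and activated through paired promoter elements, a CCAAT box bound by NF-Y and the cell cycle homology region TTTGAA bound by the DREAM complex in resting cells. TTTGAA was found on either strand in 19 of 25 windows of list members (76%), against 11.8% of the windows of tested genes, and CCAAT in 20 of 25 (80%), against 39.6%. All 19 and all 20 were called lower, where 30 of 32 were in the whole list. The Ube2c window is shown, with the reverse complement of TTTGAA in capitals 29 bases before the start (RefSeq, GRCm38.p6, chr2:164769679-164769978, plus strand).
Ube2c: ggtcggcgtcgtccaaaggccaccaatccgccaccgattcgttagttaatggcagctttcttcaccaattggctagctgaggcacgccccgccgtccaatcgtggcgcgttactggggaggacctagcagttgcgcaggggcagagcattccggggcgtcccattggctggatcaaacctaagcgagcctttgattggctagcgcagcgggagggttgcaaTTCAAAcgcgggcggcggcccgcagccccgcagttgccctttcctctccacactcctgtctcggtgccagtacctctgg
Ube2c, the ubiquitin-conjugating enzyme of the anaphase-promoting complex, had 90.7, 81.4 and 98.5 CPM in the combination libraries, against 131, 131 and 144 CPM in the enzalutamide libraries (log2 fold change -0.58 ± 0.06 SE, adjusted p 1.68e-07). Its combination libraries all lay below its enzalutamide libraries.

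Bub1b, a kinase of the spindle checkpoint, had 74.5, 70.7 and 82.3 CPM in the combination libraries, against 112, 101 and 109.9 CPM in the enzalutamide libraries (log2 fold change -0.50 ± 0.06 SE, adjusted p 3.66e-07). Ccnb2, a mitotic cyclin, had 52.9, 47.1 and 50.7 CPM in the combination libraries, against 70.7, 69.8 and 73.4 CPM in the enzalutamide libraries (log2 fold change -0.50 ± 0.06 SE, adjusted p 2.38e-06). Top2a, the topoisomerase that decatenates sister chromatids, had 432, 409 and 462 CPM in the combination libraries, against 635, 584 and 576 CPM in the enzalutamide libraries (log2 fold change -0.46 ± 0.06 SE, adjusted p 1.89e-06). None of these overlapped between groups, and each was 1.38-fold to 1.42-fold lower. The proliferation marker Mki67, the kinases Cdk1, Plk1, Aurka and Aurkb, the transcription factor Foxm1 and the kinetochore genes Cenpe, Cenpf and Ndc80 were called lower too. Nuf2 and Mad2l1 were not, with log2 fold changes of -0.09 and -0.17. In the enzalutamide libraries, against the untreated libraries, 1 of the 32 was called lower and none higher, and Ube2c averaged 135 ± 7.36 CPM in the enzalutamide libraries and 132 ± 0.294 CPM in the untreated libraries (SD, n = 3 each).

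Replication genes moved less. Of 32 tested members of the DNA replication list, 11 were called lower and none higher, with a median log2 fold change of -0.14. Without combination replicate 2 the counts were 6 lower and 1 higher, and without combination replicate 3 they were 16 and 0. Rfc4, a subunit of the clamp loader, averaged 19.3 ± 1.46 CPM in the combination libraries and 27.8 ± 4.19 CPM in the enzalutamide libraries (log2 fold change -0.53 ± 0.09 SE, adjusted p 0.000142), and Pold1, the catalytic subunit of DNA polymerase delta, averaged 44.7 ± 3.11 CPM in the combination libraries and 62.8 ± 1.89 CPM in the enzalutamide libraries (log2 fold change -0.49 ± 0.08 SE, adjusted p 7.03e-05). Mcm6 of the replicative helicase differed by -0.24 on the log2 scale (adjusted p 0.000197), while Mcm2, Mcm4, Mcm5 and Mcm7 were not called. Ccnd1, the G1 cyclin, was lower at 332 ± 15.7 CPM in the combination libraries and 434 ± 17.2 CPM in the enzalutamide libraries (log2 fold change -0.39 ± 0.06 SE, adjusted p 1.05e-05). The E2F sequence TTTCCCGC was found in 5 of 26 windows of replication genes (19.2%), 2 of them of called genes, and in 2.12% of the windows of tested genes.

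**Figure D3:**
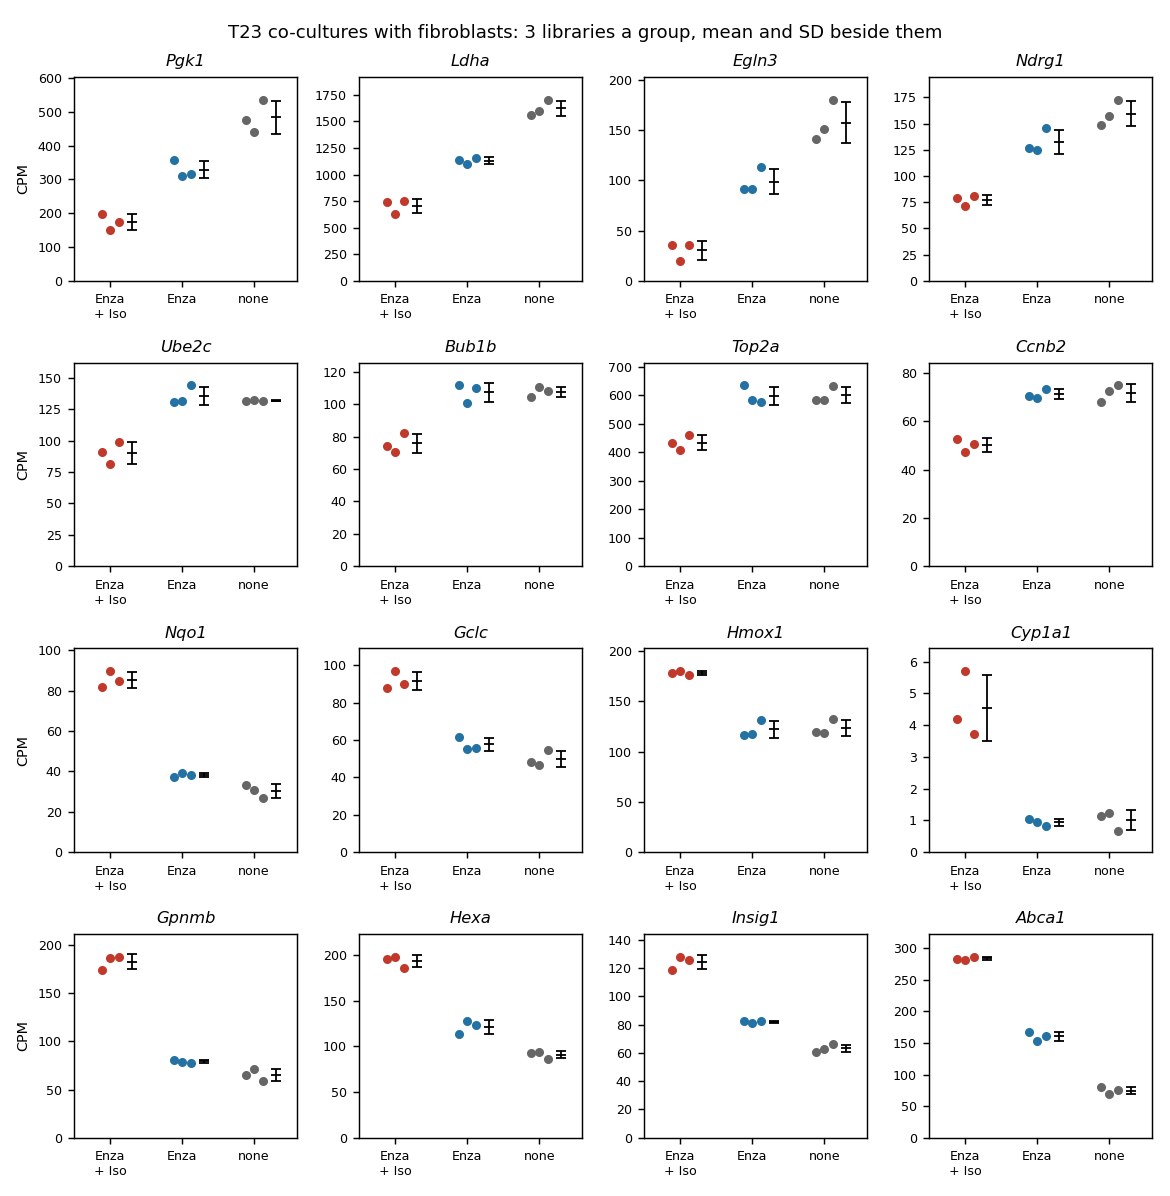
Normalised CPM of 16 genes in each of 3 combination (Enza + Iso, red), 3 enzalutamide (Enza, blue) and 3 untreated (none, grey) co-culture libraries, with mean and SD as a bar beside the points and the vertical axis from 0. Rows show hypoxia genes, mitotic genes, NRF2 or aryl hydrocarbon receptor targets, and lysosomal or sterol genes, and in each panel the combination libraries stand apart from the enzalutamide libraries.

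Targets of NRF2, the factor that raises glutathione synthesis and quinone reduction in cells exposed to electrophiles, were mostly called higher or not called. Of 25 tested members, 12 were called higher and 2 lower, with a median log2 fold change of 0.14, where 12.9% of all genes were called higher. The antioxidant response element was searched as TGACNNNGC on either strand and found in 5 of 20 windows of members (25%) and in 14.8% of the windows of tested genes. Of those 5 members Gclm was called higher and the other 4 (Srxn1, G6pdx, Me1 and Prdx1) were not called. Gclm, the modifier subunit of the enzyme that makes the glutathione precursor, holds it 134 bases before its start, shown as its reverse complement in capitals (RefSeq, GRCm38.p6, chr3:122245307-122245606, plus strand).
Gclm: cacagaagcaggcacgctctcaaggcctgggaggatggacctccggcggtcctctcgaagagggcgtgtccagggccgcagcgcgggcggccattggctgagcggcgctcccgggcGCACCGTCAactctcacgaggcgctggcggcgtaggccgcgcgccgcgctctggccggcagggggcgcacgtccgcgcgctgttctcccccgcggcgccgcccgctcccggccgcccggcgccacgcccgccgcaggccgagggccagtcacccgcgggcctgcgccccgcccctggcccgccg
Gclm had 113, 115 and 113 CPM in the combination libraries, against 79.6, 82 and 75.5 CPM in the enzalutamide libraries (log2 fold change 0.52 ± 0.06 SE, adjusted p 2.1e-07). Its catalytic partner Gclc had 88, 96.8 and 89.9 CPM in the combination libraries, against 61.5, 55.2 and 55.9 CPM in the enzalutamide libraries (log2 fold change 0.67 ± 0.07 SE, adjusted p 8.07e-08). The groups were separate for both.

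Nqo1, a quinone reductase, had 81.7, 89.7 and 84.6 CPM in the combination libraries, against 37.2, 39.3 and 38.3 CPM in the enzalutamide libraries and was 2.23-fold higher (log2 fold change 1.16 ± 0.08 SE, adjusted p 3.06e-10). Hmox1, which degrades haem, had 178, 180.0 and 176 CPM in the combination libraries, against 117, 118 and 131 CPM in the enzalutamide libraries (log2 fold change 0.54 ± 0.07 SE, adjusted p 9.6e-07), with untreated libraries at 119, 119 and 132 CPM. All combination libraries exceeded all others for both. Gsta4, a glutathione transferase for lipid aldehydes, averaged 149.5 ± 12.9 CPM in the combination libraries and 83.6 ± 3.34 CPM in the enzalutamide libraries (log2 fold change 0.84 ± 0.07 SE, adjusted p 9.94e-09), and Slc7a11, the cystine importer that supplies glutathione synthesis, averaged 22 ± 1.57 CPM in the combination libraries and 13 ± 0.291 CPM in the enzalutamide libraries (log2 fold change 0.76 ± 0.11 SE, adjusted p 1.26e-05). Gsr, Pgd, Fth1, Ephx1, Sqstm1 and Cbr3 were the other members called higher. The thioredoxin gene Txn1 and the exporter gene Abcc1 were called lower, so the list did not move in 1 direction.

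The list of the aryl hydrocarbon receptor holds its targets, the receptor gene Ahr and its partner Arnt. Of 8 tested genes, 4 were called higher and none lower, a median log2 fold change of 0.33, and 3 of the 4 were targets. Cyp1a1, a cytochrome P450 and the receptor's classical target, had 4.2, 5.7 and 3.71 CPM in the combination libraries, against 1.03, 0.95 and 0.824 CPM in the enzalutamide libraries. It was 4.81-fold higher (log2 fold change 2.27 ± 0.28 SE, adjusted p 1.34e-06) at a low level throughout. Cyp1b1, a related enzyme, had 43.5, 43.5 and 43.4 CPM in the combination libraries, against 30.9, 33.9 and 32.6 CPM in the enzalutamide libraries (log2 fold change 0.42 ± 0.07 SE, adjusted p 8.05e-05). Ahr, the receptor, averaged 38.7 ± 4.81 CPM in the combination libraries and 28.1 ± 2.6 CPM in the enzalutamide libraries (log2 fold change 0.46 ± 0.11 SE, adjusted p 0.00226), and the untreated libraries averaged 41.7 ± 3.31 CPM. The third target called was Nqo1, which stands on both lists. Tiparp, another target, averaged 85.1 CPM in the combination libraries and 90.35 CPM in the enzalutamide libraries. It was not called (log2 fold change -0.09 ± 0.06 SE, adjusted p 0.36), nor were Ugt1a6a, Nfe2l2 and Arnt, so the list was not uniform. The receptor's sequence TNGCGTG was found in 0 of 7 windows of members and in 8.20% of the windows of tested genes, which says only that these letters are not in those windows.

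Metal-response genes were called higher in 4 of 5, with a median log2 fold change of 0.40. Mt1, a metallothionein that binds zinc and copper, had 166, 187 and 193 CPM in the combination libraries, against 113, 124 and 120.0 CPM in the enzalutamide libraries (log2 fold change 0.61 ± 0.06 SE, adjusted p 1.1e-07), and Slc30a1, the zinc exporter, averaged 19.97 ± 1.34 CPM in the combination libraries and 13.3 ± 1.07 CPM in the enzalutamide libraries (log2 fold change 0.58 ± 0.10 SE, adjusted p 6.61e-05). The groups were separate for both, while Mt1 and Mt2 are close paralogs. Of 19 tested detoxification genes, 8 were called higher and 4 lower. The carbonyl reductase Cbr1 averaged 29.4 ± 0.539 CPM in the combination libraries and 19.7 ± 1.26 CPM in the enzalutamide libraries (log2 fold change 0.58 ± 0.08 SE, adjusted p 1.42e-05), and the alcohol dehydrogenase Adh7 averaged 56.1 ± 3.12 CPM in the combination libraries and 37.1 ± 0.501 CPM in the enzalutamide libraries (log2 fold change 0.60 ± 0.07 SE, adjusted p 4.75e-07). The aldehyde dehydrogenase Aldh1a1, the aldose reductase-like Akr1b8, Gstt1 and Ugdh were the 4 called lower.

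Lysosomal and autophagy genes rose. Of 27 tested members, 19 were called higher and 1 (Wipi1) lower, with a median log2 fold change of 0.32. Many of them carry the CLEAR element, which the factors TFEB and TFE3 bind when they enter the nucleus. Its core TCACGTGA, which contains ACGTG, was found in 5 of 21 windows of members (23.8%) and in 1.99% of the windows of tested genes. Atp6v0d1, a subunit of the proton pump that acidifies lysosomes, holds it across its start, with the first base of the capitals 4 bases before (RefSeq, GRCm38.p6, chr8:105566015-105566314, minus strand).
Atp6v0d1: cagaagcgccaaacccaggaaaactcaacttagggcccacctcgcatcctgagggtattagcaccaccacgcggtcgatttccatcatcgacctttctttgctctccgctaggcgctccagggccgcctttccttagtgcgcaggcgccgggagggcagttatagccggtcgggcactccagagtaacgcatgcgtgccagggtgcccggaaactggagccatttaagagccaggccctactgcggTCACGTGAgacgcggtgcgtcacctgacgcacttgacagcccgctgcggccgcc
Atp6v0d1 had 100.4, 104 and 99.3 CPM in the combination libraries, against 67.9, 71.5 and 70.0 CPM in the enzalutamide libraries (log2 fold change 0.54 ± 0.05 SE, adjusted p 5.12e-08). The groups were separate, and the untreated libraries, at 70.3, 66.7 and 71.3 CPM, overlapped the enzalutamide libraries.

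Gpnmb, a transmembrane glycoprotein raised under lysosomal stress, had 174, 187 and 188 CPM in the combination libraries, against 81, 78.5 and 77.7 CPM in the enzalutamide libraries and was 2.31-fold higher (log2 fold change 1.21 ± 0.07 SE, adjusted p 5.07e-11). Hexa, a lysosomal hexosaminidase, had 196, 198 and 185 CPM in the combination libraries, against 113, 127 and 124 CPM in the enzalutamide libraries (log2 fold change 0.67 ± 0.05 SE, adjusted p 1.58e-09). Ctsd, the aspartic protease cathepsin D, averaged 561 ± 28.9 CPM in the combination libraries and 416 ± 10.1 CPM in the enzalutamide libraries (log2 fold change 0.43 ± 0.06 SE, adjusted p 1.82e-05). None of these overlapped between groups. The membrane proteins Lamp1 and Lamp2, the protease Ctsb, the sterol carrier Npc2, the calcium channel Mcoln1 and the autophagy genes Sqstm1, Map1lc3b and Gabarapl1 were also called higher. The factor genes Tfeb and Tfe3 (log2 fold change 0.04 each) and the proteases Ctsl and Ctsz were not called.

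Sterol synthesis rose without an exception among the called genes. Of 24 tested members of the list, 15 were called higher and none lower, with a median log2 fold change of 0.27. Mvd, an enzyme of the mevalonate pathway, had 58.1, 70.5 and 68.6 CPM in the combination libraries, against 41.9, 42.3 and 38.8 CPM in the enzalutamide libraries (log2 fold change 0.68 ± 0.08 SE, adjusted p 5.63e-07). Insig1, the sterol-sensing brake on SREBP processing, had 118, 128 and 126 CPM in the combination libraries, against 82.5, 81.3 and 82.7 CPM in the enzalutamide libraries (log2 fold change 0.59 ± 0.05 SE, adjusted p 1.73e-08). Msmo1, Lss, Sqle, Dhcr7 and Cyp51, which act between squalene and cholesterol, were called higher as well. Srebf2, which encodes the regulating factor, was not called. The sterol regulatory element, searched as TCACNCCAC, was found in 1 of 17 windows of members (5.88%) and in 1.05% of the windows of tested genes.

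Of 20 tested genes of fatty acid synthesis and lipid storage, 11 were called higher and 1 (the lipid droplet coat gene Plin2) lower. Plin4, another droplet coat protein, had 8.07, 9.52 and 7.71 CPM in the combination libraries, against 3.18, 3.15 and 3.2 CPM in the enzalutamide libraries (log2 fold change 1.40 ± 0.14 SE, adjusted p 7.85e-08). Fasn, Acaca, Acly, Scd1 and Elovl6, the core of the synthesis and elongation pathway, were among those called higher, with Elovl6 at 183 ± 8.74 CPM in the combination libraries and 152 ± 6.94 CPM in the enzalutamide libraries (log2 fold change 0.27 ± 0.05 SE, adjusted p 0.00022). Abca1, the cholesterol exporter and a target of the liver X receptors, had 284, 282 and 287 CPM in the combination libraries, against 167, 153 and 162 CPM in the enzalutamide libraries and 79.6, 68.8 and 75.5 CPM in the untreated libraries. It was called higher in the combination against the enzalutamide libraries (log2 fold change 0.82 ± 0.07 SE, adjusted p 6.1e-09) and in the enzalutamide against the untreated libraries (log2 fold change 1.11 ± 0.07 SE, adjusted p 5.39e-10), and none of the 3 groups overlapped. Lpcat3 was the other of 9 tested members of that list called higher.

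Interferon-stimulated genes were mostly higher. Of 25 tested members, 19 were called higher and 1 (the immunoproteasome subunit Psmb8) lower, with a median log2 fold change of 0.35. Without combination replicate 2, the library with the highest values, 12 were called higher. Such genes carry the response element GAAA, NN and GAAA in a row, bound by a complex that holds STAT2 and IRF9. It was found on either strand in 13 of 20 windows of members (65%) and in 3.12% of the windows of tested genes. Of those 13 members 10 were called higher and 3 were not called, against 19 of 25 called higher in the whole list. The Ifit1 window holds the element at 104 and 85 bases before the start, shown as reverse complements in capitals (RefSeq, GRCm38.p6, chr19:34640639-34640938, plus strand).
Ifit1: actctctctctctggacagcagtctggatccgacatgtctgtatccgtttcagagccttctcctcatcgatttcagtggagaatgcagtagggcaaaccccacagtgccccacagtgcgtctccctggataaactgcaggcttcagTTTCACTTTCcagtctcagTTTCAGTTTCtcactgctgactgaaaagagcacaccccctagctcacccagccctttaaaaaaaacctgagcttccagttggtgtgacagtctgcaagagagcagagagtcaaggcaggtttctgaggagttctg
Ifit1, which binds viral RNA, had 208, 256 and 238 CPM in the combination libraries, against 134, 163 and 145 CPM in the enzalutamide libraries (log2 fold change 0.67 ± 0.08 SE, adjusted p 9.06e-07). Stat2 averaged 152 ± 11.6 CPM in the combination libraries and 116 ± 5.36 CPM in the enzalutamide libraries (log2 fold change 0.39 ± 0.06 SE, adjusted p 3.06e-05), and the guanylate-binding protein gene Gbp3 averaged 125 ± 13.8 CPM in the combination libraries and 89.6 ± 4.47 CPM in the enzalutamide libraries (log2 fold change 0.48 ± 0.07 SE, adjusted p 2.49e-05). The groups were separate for all 3. Isg15 (log2 fold change 0.04) and Mx1 (0.16) were not called. Ifit3 and Ifit3b are near-identical copies whose reads may be split.

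NF-kB targets went mostly the other way. Of 19 tested members of that list, 12 were called lower and 3 higher, with a median log2 fold change of -0.31. Tnfaip3, the feedback inhibitor A20, had 11.8, 10.2 and 10.2 CPM in the combination libraries, against 20.5, 17.8 and 22.3 CPM in the enzalutamide libraries (log2 fold change -0.90 ± 0.09 SE, adjusted p 6.18e-08). Nfkb1, the p105 precursor of the p50 subunit, averaged 125 ± 5.53 CPM in the combination libraries and 153 ± 2.27 CPM in the enzalutamide libraries (log2 fold change -0.30 ± 0.04 SE, adjusted p 1.61e-05), and the inhibitor Nfkbia, the subunits Nfkb2 and Relb, the adhesion molecule Vcam1 and the cytokines Csf1 and Il33 were lower too. Ccl2, the monocyte chemokine, had 168, 134 and 168 CPM in the combination libraries, against 233, 231 and 235 CPM in the enzalutamide libraries (log2 fold change -0.57 ± 0.07 SE, adjusted p 2.41e-06). In contrast, the stromal chemokine Cxcl12 had 1585, 1526 and 1455 CPM in the combination libraries, against 1162, 1211 and 1138 CPM in the enzalutamide libraries (log2 fold change 0.38 ± 0.06 SE, adjusted p 5.35e-05), and Cxcl1 and the cyclooxygenase gene Ptgs2 were called higher as well. Tnfrsf9, a costimulatory receptor of the tumour necrosis factor family, had 10.8, 6.35 and 9.31 CPM in the combination libraries, against 25.2, 26.1 and 28.7 CPM in the enzalutamide libraries (log2 fold change -1.58 ± 0.16 SE, adjusted p 1.17e-07).

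Il6, the cytokine that activates STAT3, was too low to test, at 0.143, 0.092 and 0.253 CPM in the combination libraries, against 0.327, 0.05 and 0.097 CPM in the enzalutamide libraries, near what 3 counts give. Of 22 tested genes of the IL-6 and STAT3 response, 7 were called higher and 4 lower, or 8 and 2 without enzalutamide replicate 3. Socs2, a suppressor of cytokine and growth hormone signalling, had 17.1, 14.8 and 11.9 CPM in the combination libraries, against 6.68, 7.15 and 6.35 CPM in the enzalutamide libraries (log2 fold change 1.12 ± 0.15 SE, adjusted p 3.42e-06), and the kinase gene Pim1 averaged 11.2 ± 0.437 CPM in the combination libraries and 16.2 ± 1.11 CPM in the enzalutamide libraries (log2 fold change -0.53 ± 0.09 SE, adjusted p 0.000149). Stat3 and Il6ra were called higher, and Bcl3 and Il4ra lower.

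Hspa5, which encodes GRP78 (GENCODE M21 on GRCm38, chr2:34771970-34777547, plus strand), was not called. It had 1369, 1272 and 1318 CPM in the combination libraries, against 1492, 1437 and 1384 CPM in the enzalutamide libraries, and 1477, 1532 and 1526 CPM in the untreated libraries. The combination libraries all lay under the enzalutamide libraries, but the difference of -0.12 ± 0.05 (SE) on the log2 scale had an adjusted p of 0.0718. DESeq2 called it lower (adjusted p 0.0209), as did edgeR without the enzalutamide library of T23 cells alone that is rich in ribosomal RNA (adjusted p 0.0370), and over all alternatives the adjusted p ran from 0.0209 to 0.249. RNA levels do not measure the activity of the protein. Among 24 tested genes of the unfolded protein response, 4 were called higher (16.7%) and 1 lower (4.2%), against 12.9% and 13.6% of all genes. Their median log2 fold change was 0.05. DESeq2 called 4 higher and 4 lower, and edgeR without the library rich in ribosomal RNA called 4 and 3. Without enzalutamide replicate 1 or combination replicate 3, 2 were lower. Dnajb9, a co-chaperone induced by the IRE1 and XBP1 branch, had 51.3, 49.5 and 47.9 CPM in the combination libraries, against 35.1, 40.8 and 32.5 CPM in the enzalutamide libraries (log2 fold change 0.46 ± 0.10 SE, adjusted p 0.00124). Dnajc3 and Dnajb11, further co-chaperones of the lumen, differed by 0.27 and 0.18 on the log2 scale, and Edem1, which takes misfolded glycoproteins to degradation, was lower (log2 fold change -0.22 ± 0.05 SE, adjusted p 0.00134). Ddit3, the stress factor CHOP, averaged 29.6 ± 1.82 CPM in the combination libraries and 28.9 ± 3.82 CPM in the enzalutamide libraries and was not called (log2 fold change 0.03 ± 0.08 SE, adjusted p 0.82).

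In the integrated stress response list, which holds targets of ATF4, 8 of 23 tested genes were called lower and 3 higher. Those lower include enzymes that make amino acids. Asns, asparagine synthetase, had 108, 90.3 and 110.3 CPM in the combination libraries, against 144, 137 and 147 CPM in the enzalutamide libraries (log2 fold change -0.47 ± 0.06 SE, adjusted p 3.39e-06). Pycr1, which completes proline synthesis, had 12.7, 10.9 and 13.5 CPM in the combination libraries, against 21.3, 19.9 and 21.6 CPM in the enzalutamide libraries (log2 fold change -0.75 ± 0.09 SE, adjusted p 7.84e-07), and Aldh18a1, which starts it, averaged 198 ± 12.8 CPM in the combination libraries and 276 ± 9.87 CPM in the enzalutamide libraries (log2 fold change -0.48 ± 0.05 SE, adjusted p 2.64e-07). Phgdh of serine synthesis, Mthfd2 and the transporter Slc7a5 were lower too. Trib3, a pseudokinase induced by CHOP, averaged 9.97 ± 0.778 CPM in the combination libraries and 15.9 ± 0.936 CPM in the enzalutamide libraries, and 11.2 ± 0.438 CPM in the untreated libraries (log2 fold change -0.67 ± 0.11 SE, adjusted p 4.54e-05). It was called higher in the enzalutamide against the untreated libraries (log2 fold change 0.50 ± 0.11 SE, adjusted p 0.00428), a comparison with which the run of the index nearly coincides.

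Of 20 cytosolic heat shock genes, 5 were called higher and 3 lower. The number lower was 0 without combination replicate 2, 1 without combination replicate 1 or enzalutamide replicate 3, and 5 without combination replicate 3. Cryab, a small chaperone, had 11.6, 13.9 and 11.7 CPM in the combination libraries, against 6.26, 6.85 and 6.54 CPM in the enzalutamide libraries (log2 fold change 0.92 ± 0.12 SE, adjusted p 3.53e-06), and Hspa1b, an inducible HSP70 with the near-identical copy Hspa1a, averaged 40.6 ± 2.87 CPM in the combination libraries and 29.6 ± 3.6 CPM in the enzalutamide libraries (log2 fold change 0.45 ± 0.10 SE, adjusted p 0.00138). Hsp90aa1, Hsp90ab1 and Hspb1 were called lower. Of 22 p53 targets and cyclin-dependent kinase inhibitors, 4 were called higher (18.2%) and 1 lower (4.5%), with a median of 0.04. Of 21 apoptosis regulators 2 were higher (9.5%) and 5 lower (23.8%). Over all genes 12.9% were called higher and 13.6% lower. The single p53 target lower became 2 without enzalutamide replicate 2, combination replicate 1 or combination replicate 3, and the apoptosis regulators higher became 1 when any of the 6 libraries but enzalutamide replicate 3 or combination replicate 1 was left out. Apaf1, the scaffold of the apoptosome, averaged 76.3 ± 0.0398 CPM in the combination libraries and 91.2 ± 6.27 CPM in the enzalutamide libraries (log2 fold change -0.26 ± 0.05 SE, adjusted p 0.000985).

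**Figure D4:**
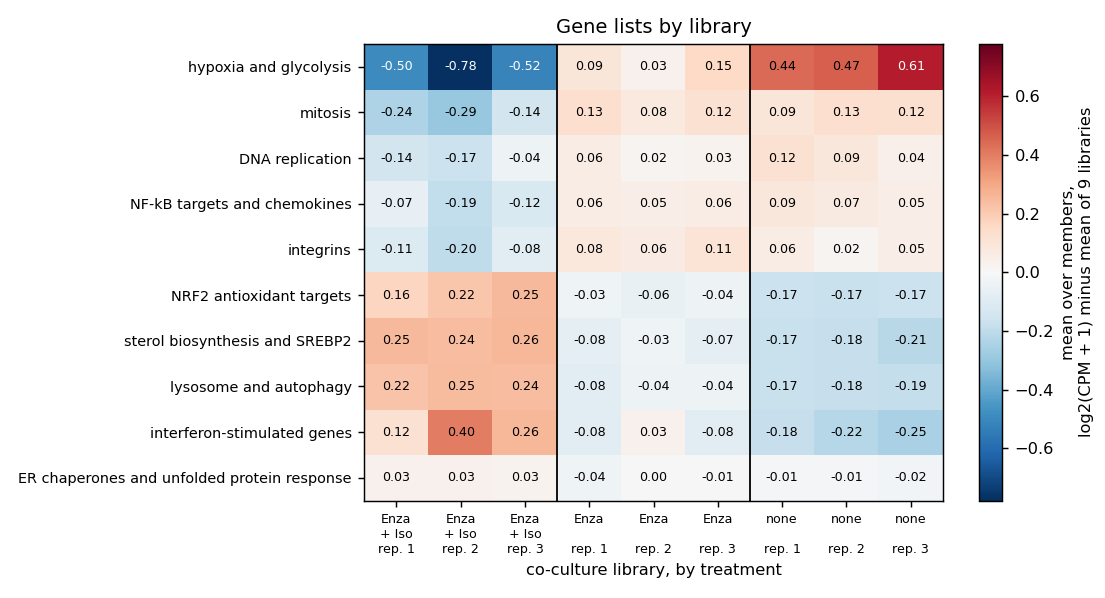
Mean over the tested members of 10 gene lists in each of 9 co-culture libraries, as log2(CPM + 1) minus the mean of the 9 libraries (blue below, red above, value printed in each cell), for 3 combination (Enza + Iso), 3 enzalutamide (Enza) and 3 untreated (none) libraries. Hypoxia and glycolysis stood at -0.78 to -0.50 in the combination libraries, 0.03 to 0.15 in the enzalutamide libraries and 0.44 to 0.61 in the untreated libraries, while endoplasmic reticulum chaperones stayed within 0.04 of 0 throughout.

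Some of the genes with the largest rise, named for the size of it, stood on few or none of the lists. Igf1, the insulin-like growth factor, had 38, 37.1 and 29.7 CPM in the combination libraries, against 13.8, 14.5 and 10.3 CPM in the enzalutamide libraries and was 2.72-fold higher (log2 fold change 1.44 ± 0.11 SE, adjusted p 2.05e-09). Smoc2, a secreted matricellular protein, had 10.2, 11.1 and 8.35 CPM in the combination libraries, against 2.43, 2.4 and 2.52 CPM in the enzalutamide libraries and was 4.03-fold higher (log2 fold change 2.01 ± 0.16 SE, adjusted p 2.78e-09). Rspo2, an R-spondin that potentiates Wnt signalling, had 62.5, 70.2 and 54.8 CPM in the combination libraries, against 22.9, 25 and 24.9 CPM in the enzalutamide libraries (log2 fold change 1.36 ± 0.10 SE, adjusted p 1.51e-09). None of the 3 overlapped between groups, which the rule for naming genes by their rise required. The untreated libraries stood at 13.6, 14.1 and 13 CPM for Igf1, within the range of the enzalutamide libraries, and at 17.4, 17.3 and 15.2 CPM for Rspo2, below them. Enpp2, the lysophospholipase autotaxin, had 48.8, 48.4 and 34.1 CPM in the combination libraries, against 15.6, 19.2 and 14.5 CPM in the enzalutamide libraries (log2 fold change 1.41 ± 0.11 SE, adjusted p 3.48e-09). Thrb, a thyroid hormone receptor, had 22.4, 24 and 17.4 CPM in the combination libraries, against 6.82, 8.2 and 7.95 CPM in the enzalutamide libraries (log2 fold change 1.47 ± 0.11 SE, adjusted p 8.53e-10), and Dapk1, a calmodulin-dependent kinase linked to cell death, averaged 9.43 ± 1.92 CPM in the combination libraries and 3.85 ± 0.448 CPM in the enzalutamide libraries (log2 fold change 1.29 ± 0.16 SE, adjusted p 1.68e-06).

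Genes named for the size of their fall follow, also picked among those with separate ranges. Tgfa, a ligand of the epidermal growth factor receptor, had 4.63, 4.55 and 5.65 CPM in the combination libraries, against 18, 15.9 and 16.7 CPM in the enzalutamide libraries and was 3.41-fold lower (log2 fold change -1.77 ± 0.10 SE, adjusted p 5.07e-11). Wnt7b, a Wnt ligand, had 11.2, 12.3 and 16.5 CPM in the combination libraries, against 36.4, 38 and 42.3 CPM in the enzalutamide libraries and 86.2, 86.5 and 83.5 CPM in the untreated libraries (log2 fold change -1.55 ± 0.11 SE, adjusted p 7.68e-10). For Wnt7b the enzalutamide libraries were also called lower than the untreated ones (log2 fold change -1.13 ± 0.10 SE, adjusted p 8.56e-08), whereas for Tgfa they were not (log2 fold change -0.02 ± 0.09 SE, adjusted p 0.917). Atp2b4, a plasma membrane calcium pump, had 30.3, 17 and 25 CPM in the combination libraries, against 82.1, 76.9 and 79.3 CPM in the enzalutamide libraries (log2 fold change -1.71 ± 0.15 SE, adjusted p 1.14e-08), and Sprr1a, a cornified envelope precursor, averaged 31 ± 11.1 CPM in the combination libraries and 101 ± 16.3 CPM in the enzalutamide libraries (log2 fold change -1.70 ± 0.16 SE, adjusted p 3.85e-08). Siglecg, a sialic acid-binding receptor, and Plac1, a trophoblast gene found in many tumours, were 3.1-fold and 2.93-fold lower.

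Of 17 tested BMP-response genes, 8 were called higher and 1 (the antagonist Nog) lower, with a median log2 fold change of 0.42, or 0.24 without combination replicate 2. The Id genes encode inhibitors of basic helix-loop-helix factors and are direct targets of BMP signalling. Id2 had 19.2, 19.5 and 13.7 CPM in the combination libraries, against 7.38, 7.25 and 8.48 CPM in the enzalutamide libraries (log2 fold change 1.18 ± 0.14 SE, adjusted p 5.63e-07), and Id1 averaged 15.9 ± 1.4 CPM in the combination libraries and 8.39 ± 0.659 CPM in the enzalutamide libraries (log2 fold change 0.92 ± 0.12 SE, adjusted p 2.78e-06). The ligand gene Bmp4 averaged 25.8 ± 1.41 CPM in the combination libraries and 19 ± 1.16 CPM in the enzalutamide libraries (log2 fold change 0.44 ± 0.07 SE, adjusted p 3.71e-05). Grem1, a secreted BMP antagonist, had 1394, 1419 and 1337 CPM in the combination libraries, against 822, 835 and 759 CPM in the enzalutamide libraries (log2 fold change 0.78 ± 0.05 SE, adjusted p 3.44e-10), so a ligand, targets and an antagonist were higher together. Against the untreated libraries, 7 of the 17 were called lower and 1 higher in the enzalutamide libraries, with a median of -0.28, under the limit of the run of the index given above. In the combination libraries 6 were higher and 4 lower than untreated, with a median of 0.009. Of 17 Wnt feedback genes and modulators, 6 were called higher and 3 lower, and those higher were the secreted modulators Rspo1, Rspo2, Rspo3, Dkk2 and Sfrp2 and the inhibitor Apcdd1. Lef1, Ccnd1 and Kremen1 were lower.

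Immediate early genes, which growth factors and stress induce within minutes, were called higher in 12 of 28 and lower in 5, with a median log2 fold change of 0.22, or 0.12 without enzalutamide replicate 1. Fos averaged 3.78 ± 0.475 CPM in the combination libraries and 1.71 ± 0.406 CPM in the enzalutamide libraries (log2 fold change 1.15 ± 0.18 SE, adjusted p 3.12e-05). Zfp36, which destabilises cytokine messages, had 29.6, 37.7 and 39.2 CPM in the combination libraries, against 17.9, 18.3 and 19.97 CPM in the enzalutamide libraries (log2 fold change 0.92 ± 0.09 SE, adjusted p 9.32e-08), and Ier2, Klf4, Egr1 and the receptor tyrosine kinase inhibitor gene Spry2 were higher too. Myc, Etv4, Fosb, Dusp5 and Maff were called lower. Of 18 clock genes, 2 were called higher (11.1%) and 4 lower (22.2%), against 12.9% and 13.6% of all genes. The repressor Bhlhe40, also a hypoxia target, averaged 100.5 ± 15.9 CPM in the combination libraries and 150.0 ± 18.7 CPM in the enzalutamide libraries (log2 fold change -0.58 ± 0.10 SE, adjusted p 7.52e-05), and Nfil3 averaged 11.4 ± 0.449 CPM in the combination libraries and 17.7 ± 1.22 CPM in the enzalutamide libraries (log2 fold change -0.63 ± 0.10 SE, adjusted p 2.47e-05).

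**Figure D5:**
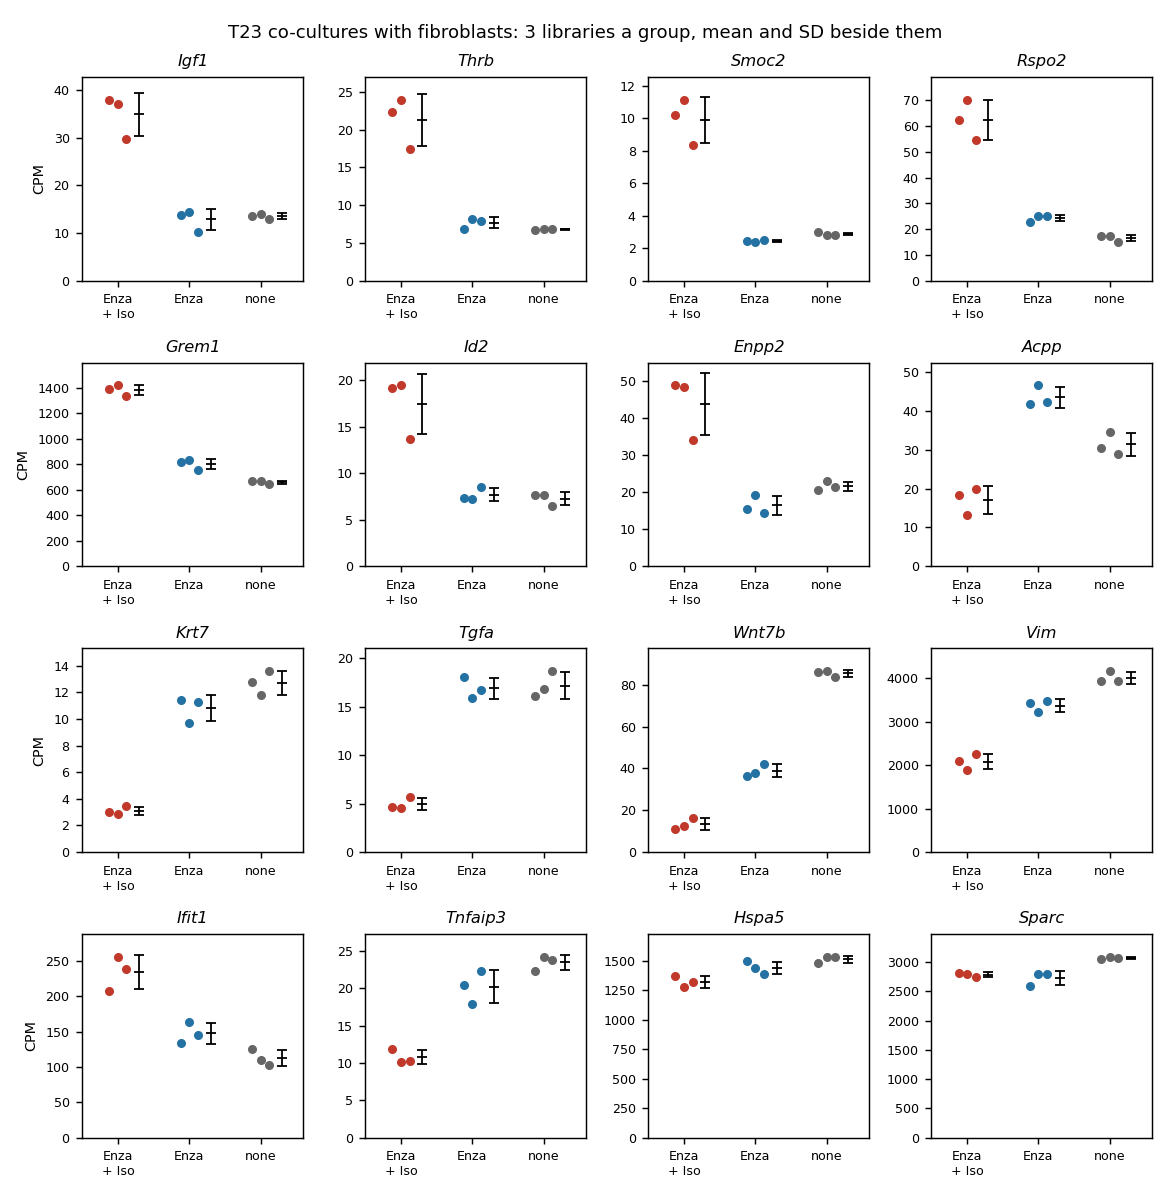
Normalised CPM of 16 further genes in each of 3 combination (Enza + Iso, red), 3 enzalutamide (Enza, blue) and 3 untreated (none, grey) co-culture libraries, with mean and SD as a bar beside the points and the vertical axis from 0. Igf1, Thrb, Smoc2 and Rspo2 were higher in the combination libraries, Krt7, Tgfa, Wnt7b and Vim lower, and Sparc overlapped between the combination and enzalutamide libraries.

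Matrix genes moved in both directions. Of 29 tested genes of fibrillar collagens and their crosslinking, 14 were called lower and 5 higher, with a median log2 fold change of -0.16. Col1a1, a chain of the main fibrillar collagen, had 6837, 7199 and 7168 CPM in the combination libraries, against 9081, 8527 and 8964 CPM in the enzalutamide libraries (log2 fold change -0.33 ± 0.05 SE, adjusted p 6.3e-05), and Col3a1 averaged 4119 ± 109 CPM in the combination libraries and 5236 ± 115 CPM in the enzalutamide libraries (log2 fold change -0.35 ± 0.05 SE, adjusted p 4.06e-06). Col5a3, a minor fibrillar chain, had 189, 112 and 181 CPM in the combination libraries, against 412, 387 and 449 CPM in the enzalutamide libraries and was 2.59-fold lower (log2 fold change -1.37 ± 0.12 SE, adjusted p 9.76e-09). Col18a1, the source of endostatin, averaged 246 ± 23.9 CPM in the combination libraries and 488 ± 36.3 CPM in the enzalutamide libraries (log2 fold change -0.99 ± 0.07 SE, adjusted p 6.75e-10). Higher were Col8a2, a short-chain collagen, at 13.1, 15.5 and 13.1 CPM in the combination libraries, against 5.47, 4.75 and 6.16 CPM in the enzalutamide libraries (log2 fold change 1.34 ± 0.13 SE, adjusted p 5.11e-08), Col12a1, which sits on fibril surfaces, at 524 ± 22.2 CPM in the combination libraries and 325 ± 4.94 CPM in the enzalutamide libraries (log2 fold change 0.69 ± 0.06 SE, adjusted p 7.28e-09), and Col10a1 outside the list, at 8.21 ± 1.32 CPM in the combination libraries and 3.32 ± 0.541 CPM in the enzalutamide libraries (log2 fold change 1.30 ± 0.20 SE, adjusted p 3.63e-05). Lox, which crosslinks collagen and elastin, had 1576, 1589.5 and 1501 CPM in the combination libraries, against 1009.5, 1047 and 957 CPM in the enzalutamide libraries (log2 fold change 0.63 ± 0.07 SE, adjusted p 8.02e-07).

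Sparc (chr11:55394500-55423183, minus strand) encodes the collagen-binding matricellular protein that the series title names. It had 2821, 2789.8 and 2738 CPM in the combination libraries, against 2586, 2797 and 2799.9 CPM in the enzalutamide libraries. The groups overlapped (log2 fold change 0.03 ± 0.05 SE, adjusted p 0.691). Of 24 tested matricellular and elastic fibre genes, 11 were called higher and 7 lower. Fn1, fibronectin, had 7246, 6724 and 7782 CPM in the combination libraries, against 9922, 9799 and 10414 CPM in the enzalutamide libraries (log2 fold change -0.47 ± 0.06 SE, adjusted p 1.01e-06), and Dcn, the small proteoglycan decorin, had 157, 134 and 143 CPM in the combination libraries, against 253, 269 and 256 CPM in the enzalutamide libraries (log2 fold change -0.84 ± 0.09 SE, adjusted p 9.7e-08). Mgp, an inhibitor of calcification, had 236, 230.1 and 264 CPM in the combination libraries, against 129, 128 and 144 CPM in the enzalutamide libraries (log2 fold change 0.87 ± 0.10 SE, adjusted p 4.23e-07), and Fbln5, needed for elastic fibres, averaged 241 ± 30.0 CPM in the combination libraries and 143 ± 12.2 CPM in the enzalutamide libraries (log2 fold change 0.75 ± 0.07 SE, adjusted p 5.12e-08). The proteases Mmp9 and Plau were lower (-0.52 and -0.57 on the log2 scale), while Ctsk, cathepsin K, averaged 23.6 ± 1.92 CPM in the combination libraries and 11.5 ± 0.201 CPM in the enzalutamide libraries (log2 fold change 1.04 ± 0.09 SE, adjusted p 1.08e-08). In all, 7 of 23 protease and inhibitor genes were called higher and 9 lower.

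Integrin genes fell where they were called. Of 17 tested, 7 were lower and none higher, with a median log2 fold change of -0.27. Without enzalutamide replicate 3 that median was -0.09 and without combination replicate 2 it was -0.15, with 7 called lower each time. Itga6, a laminin receptor chain, had 81.1, 70.3 and 89.4 CPM in the combination libraries, against 142, 140.5 and 140.1 CPM in the enzalutamide libraries (log2 fold change -0.81 ± 0.06 SE, adjusted p 3.61e-09), and Cd44, a hyaluronan receptor on the same list, averaged 423 ± 33.1 CPM in the combination libraries and 527 ± 9.07 CPM in the enzalutamide libraries (log2 fold change -0.32 ± 0.06 SE, adjusted p 0.00019). Of 21 targets of TGF-beta and YAP, 4 were called higher (19.05%), 5 lower (23.8%) and 12 neither, against 12.9% and 13.6% of all genes. Their median log2 fold change was -0.10. Both genes given next were called lower and do not stand for the list. Ankrd1, a YAP target, had 164, 131 and 179 CPM in the combination libraries, against 272, 262 and 278 CPM in the enzalutamide libraries (log2 fold change -0.78 ± 0.08 SE, adjusted p 5.19e-08), and Acta2, smooth muscle actin, averaged 466 ± 61.9 CPM in the combination libraries and 611 ± 41 CPM in the enzalutamide libraries (log2 fold change -0.39 ± 0.09 SE, adjusted p 0.00129). Without combination replicate 1, combination replicate 2 or enzalutamide replicate 3, 2 were called higher and 4 lower. Vim, the intermediate filament of mesenchymal cells, had 2095, 1891 and 2245 CPM in the combination libraries, against 3421, 3211 and 3479 CPM in the enzalutamide libraries (log2 fold change -0.70 ± 0.06 SE, adjusted p 9.8e-09). Of 13 tested factors and markers of the epithelial-mesenchymal transition, 3 were called higher and 3 lower, with a median log2 fold change of 0.03. Over the alternatives 2 to 5 were higher and 3 to 5 lower.

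Most luminal epithelial markers were at or near 0 in all libraries, although T23 is labelled a prostate adenocarcinoma line. Of 16 such markers 5 were tested, with 1 called higher and 2 lower, and Psca, Cldn3, Msmb and Pbsn had no count in any of the 6 libraries. The summed level of the list was 177 to 209 CPM in the combination libraries, against 143 to 153 CPM in the enzalutamide libraries. Epcam averaged 0.11 CPM in the combination libraries and 0.063 CPM in the enzalutamide libraries, and Krt8 averaged 0.23 CPM in the combination libraries and 0.19 CPM in the enzalutamide libraries. Krt7, a simple epithelial keratin, had 2.98, 2.85 and 3.46 CPM in the combination libraries, against 11.4, 9.7 and 11.3 CPM in the enzalutamide libraries and was 3.49-fold lower (log2 fold change -1.80 ± 0.12 SE, adjusted p 2.18e-10). Krt19, another, had 1.97, 0.414 and 1.6 CPM in the combination libraries, against 6.12, 5.25 and 7.42 CPM in the enzalutamide libraries (log2 fold change -2.18 ± 0.24 SE, adjusted p 3.02e-07). All combination libraries lay below all enzalutamide libraries for both keratins. These are the 2 markers called lower, while the summed level of the list went the other way, so they do not stand for the list. The 1 marker called higher is not reported here. Only 1 of the 16 markers stood at 10 CPM or more over these 6 libraries.

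Among 15 tested androgen and glucocorticoid response genes, 5 were called higher and 5 lower. Acpp, prostatic acid phosphatase, had 18.4, 13.1 and 20.02 CPM in the combination libraries, against 41.8, 46.5 and 42.2 CPM in the enzalutamide libraries (log2 fold change -1.33 ± 0.11 SE, adjusted p 5.8e-09), and the drug and nucleotide exporter gene Abcc4 averaged 67.2 ± 2.8 CPM in the combination libraries and 46.2 ± 2.46 CPM in the enzalutamide libraries (log2 fold change 0.54 ± 0.06 SE, adjusted p 5.99e-07). Fkbp5 and Tsc22d3, which steroid hormones induce, were called lower, and Nr3c1, the glucocorticoid receptor, higher. Of 9 tested estrogen receptor genes and targets, 5 were called higher and none lower, among them Esr1 and Greb1, a receptor cofactor at 5.68 ± 0.344 CPM in the combination libraries and 2.11 ± 0.654 CPM in the enzalutamide libraries (log2 fold change 1.42 ± 0.17 SE, adjusted p 8.44e-07). Igf1, Cxcl12 and Ctsd stand on this list as well as on others above.

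Defining neuroendocrine markers were at or near 0. Of 28 markers listed, 12 were tested, 1 called higher and 3 lower, and their summed level was 206.8 to 224 CPM in the combination libraries, against 222 to 232 CPM in the enzalutamide libraries. Chga, Insm1, Neurod1, Nkx2-2, Calca and Pcsk2 had no count in any of the 6, and Syp, synaptophysin, averaged 0.0925 ± 0.0507 CPM in the combination libraries and 0.0485 ± 0.084 CPM in the enzalutamide libraries (SD, n = 3 each). Eno2, neuron-specific enolase, had 49.6, 48.4 and 40.1 CPM in the combination libraries, against 43.7, 38.7 and 44.2 CPM in the enzalutamide libraries and was not called (log2 fold change 0.13 ± 0.08 SE, adjusted p 0.291). Ncam1, a neural adhesion molecule, had 96.9, 81.5 and 83.3 CPM in the combination libraries, against 92.2, 95.5 and 95.8 CPM in the enzalutamide libraries and was not called (log2 fold change -0.11 ± 0.07 SE, adjusted p 0.27). Mycn, the oncogenic MYC homolog raised in neuroendocrine tumours, had 3.98, 3.31 and 4.81 CPM in the combination libraries, against 8.5, 9.35 and 7.95 CPM in the enzalutamide libraries (log2 fold change -1.09 ± 0.12 SE, adjusted p 2.46e-07), and Rcor2 and Tubb3 were lower as well. Uchl1, a neuronal ubiquitin hydrolase, averaged 35.1 ± 3.39 CPM in the combination libraries and 27.4 ± 2.07 CPM in the enzalutamide libraries (log2 fold change 0.36 ± 0.11 SE, adjusted p 0.017), and its adjusted p ran from 0.000179 to 0.0809 over the alternatives.

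Of 18 tested fibroblast and mesenchymal markers, 11 were called lower and 3 higher, and their summed level was 31060 to 32360 CPM in the combination libraries, against 38510 to 39980 CPM in the enzalutamide libraries. This list does not tell fibroblasts from T23 cells, since in libraries of T23 cells without fibroblasts 17 of its 20 genes reached 10 CPM, as many as in these 6. Dpt, dermatopontin, had 18.8, 18 and 17.1 CPM in the combination libraries, against 49.3, 42.1 and 39.4 CPM in the enzalutamide libraries (log2 fold change -1.28 ± 0.10 SE, adjusted p 4.04e-09), and Thy1, a surface glycoprotein, had 58.1, 49.3 and 63.4 CPM in the combination libraries, against 90.7, 96.8 and 98.6 CPM in the enzalutamide libraries (log2 fold change -0.74 ± 0.07 SE, adjusted p 2.58e-08). The growth factor receptor genes Pdgfra and Pdgfrb rose instead, by 0.28 and 0.22 on the log2 scale, with Pdgfra at 1377 ± 39.7 CPM in the combination libraries and 1131 ± 30.6 CPM in the enzalutamide libraries (SD, n = 3 each). Summed macrophage markers were 19.9 to 22.7 CPM in the combination libraries and 16.5 to 18.4 CPM in the enzalutamide libraries, with Adgre1, Tyrobp, C1qa and C1qb at 0. Cd14 was the only one of the 3 tested called higher (log2 fold change 0.36 ± 0.10 SE, adjusted p 0.00984). Lymphocyte markers summed to 0.230 to 0.337 CPM in the combination libraries, 0.420 to 0.630 CPM in the enzalutamide libraries and 0.708 to 1.06 CPM in the untreated libraries, with Cd3e, Cd3d, Cd8a and Ms4a1 at 0. Endothelial markers summed to 6.70 to 6.81 CPM in the combination libraries and 4.25 to 4.70 CPM in the enzalutamide libraries. Kdr and Tek, 2 of the 3 tested, were called higher, and Cldn5 and Emcn were at 0. Muscle, melanocyte and basal epithelial lists had no called gene, and in the adipocyte list Cebpa was called higher (log2 fold change 0.82 ± 0.17 SE, adjusted p 0.000722).

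Calls among mitochondrially encoded transcripts depended on the fit. Of 7 tested protein genes, 4 were called higher and none lower, with a median log2 fold change of 0.62, and the other 6 of the 13 had no count in any of the 18 libraries. mt-Nd2, a complex I subunit, had 2711, 3036 and 3135 CPM in the combination libraries, against 1377, 2222 and 2032 CPM in the enzalutamide libraries, with the untreated libraries at 1172, 777 and 789 CPM (log2 fold change 0.66 ± 0.19 SE, adjusted p 0.013). Combination libraries exceeded enzalutamide libraries throughout, and the lowest enzalutamide value was that of replicate 1, the library from the first run of the index. Without it, none of the 7 was called, nor with the run of the index as a term, and DESeq2 called 1. Without combination replicate 2, 1 was called, and without combination replicate 3, 2 were. More were called in other fits: 7 with no filter, and 6 with both groups alone or without the library rich in ribosomal RNA. The replicate block gave 5, as did leaving out enzalutamide replicate 3. Nuclear-encoded respiratory chain genes did not share the direction: of 28 tested, none was called higher and 3 were called lower, with a median of -0.04.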

How the data were processed

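RNA of 18 libraries in 6 groups of 3 had been captured by poly(A), made into stranded libraries with dUTP in the second strand and sequenced on a NextSeq instrument, per the labels' protocols. The authors deposited raw counts per gene, not normalised, 1 file for each library. The submitters' processing notes name featureCounts 2.0 and STAR 2.6.1d among the tools, with cutadapt 2.9 and DESeq2, and give GRCm38 as the mouse build. Which annotation release was counted, with which strand setting, and how reads with several matches were handled is not given in the sources used here. Antisense and overlapping genes are therefore uncertain: 13 of the genes chosen for naming share same-strand exon bases with another gene (Gclm, Top2a, Col3a1, Ctsd, Pdgfra, Atp2b4, Ddit3, Acsl3, Akr1c14, Pik3r3, Tuba1a, Hist3h2a and mt-Nd2) and 48 have an exon overlap on the other strand.

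Each file lists 55487 genes, of which 55227 took a symbol from GENCODE M21 and the supplied gene name tables. The 260 without one hold 0.00552% of all counts. Totals over the 18 libraries were 16.1 to 26.7 M, with 18123 to 20154 genes detected. Between replicates, the chi-square of the counts over its degrees of freedom was 4.81 to 8.79 in the combination group and 3.73 to 12.1 in the enzalutamide group, so no 2 libraries agreed within sampling noise.

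Genes were filtered with filterByExpr (minimum count 10), which left 13600. After TMM scaling, the quasi-likelihood method of edgeR (version 4.0.16, in R 4.3.3) was fitted to all 18 libraries with a mean for each group. This left 12 residual degrees of freedom, and the biological coefficient of variation was 7.03%. Contrasts were tested two-sided. An SE is the absolute log2 fold change divided by the root of the F statistic. On simulated counts for 13429 genes of the main comparison, the fit called 68 of 97 genes changed 1.5-fold (70.1%) and 90 of 98 changed 2-fold (91.8%). It also called 15 of 13234 unchanged genes (0.113%), to be set against these 68 and 90 true calls. Far fewer genes were changed in the simulation than were called in the data, so these shares need not carry over. Promoter windows (250 bases before to 50 after the start) came from RefSeq, GRCm38.p6. Of the genes tested, 10014 had 1.

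The comparison, the gene lists (33 pathway and 10 marker lists) and the rule for naming genes were chosen with earlier results of these data known. The rule names 11 genes whatever their values (Hspa5, Sparc, Il6, Hmox1, Nqo1, Cyp1b1, Ddit3, Syp, Chga, Eno2 and Ncam1), the 10 called genes with the largest rise and the 10 with the largest fall at 5 CPM or more with separate ranges, and up to 4 called members of each pathway list by smallest p. Other members are named by their call alone or with a fold change, and the genes of the last section were chosen after their values were seen. Some genes that these rules give are not reported here. Alternatives were RLE scaling, DESeq2 1.42.0, no filter, a fit of both groups alone, the replicate number as a block, the run of the title index as a term, a fit without the enzalutamide library of T23 cells alone that is rich in ribosomal RNA, and each replicate left out.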

Additional observations from a re-analysis of the deposited data

How the results depend on the processing

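The 3599 genes called with isoliquiritigenin stayed within 1.5 times under every alternative run: 3601 with RLE scaling, 3610 with DESeq2, 3339 without a filter, 3556 with both groups alone in the fit, 2955 with the run of the index as a term and 4225 when the library with much ribosomal RNA was left out. Leaving out 1 replicate gave 2522 to 3365, the lowest without combination replicate 2. The replicate number as a block gave 3498, and same-number libraries of both groups correlated by 0.0435 to 0.0982 in their deviations, under the limit of 0.1 taken for pairing. Each combination library did correlate best with its own number, a hint from the data and not from the design. With the run of the index as a term, the combination against the untreated libraries gave 1849 called genes (866 higher, 983 lower) in place of 5324, and the enzalutamide against the untreated libraries gave 214 (93 higher, 121 lower) in place of 977. All untreated libraries and 1 enzalutamide library fall in the first run, and all combination libraries in the second. The combination and untreated libraries thus share no run, and fewer libraries inform these 2 comparisons there. Leaving out 1 replicate gave 550 to 924 for enzalutamide against untreated (281 to 476 higher, 269 to 448 lower). Of 181 called genes chosen for naming, 167 kept their call in all 13 alternatives, and none of the 2444 values reversed. The mitochondrial difference was 0.716 to 1.41 percentage points with 1 library left out. Depth limits genes under about 0.151 CPM, such as Syp.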

Other observations

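Further groups of genes, all chosen after their values were seen, are given as values. Genes of insulin and growth hormone signalling went in both directions. Pik3r1, a regulatory subunit of phosphoinositide 3-kinase, had 67.9, 67.5 and 54.3 CPM in the combination libraries, against 30.4, 33.9 and 30.9 CPM in the enzalutamide libraries (log2 fold change 1.00 ± 0.08 SE, adjusted p 2.55e-09), and its relative Pik3r3 had 41.3, 46.4 and 38.1 CPM in the combination libraries, against 18.8, 20.1 and 17.3 CPM in the enzalutamide libraries (log2 fold change 1.16 ± 0.10 SE, adjusted p 2.07e-08). Ghr, the growth hormone receptor, averaged 123 ± 10.5 CPM in the combination libraries and 81.2 ± 4.68 CPM in the enzalutamide libraries (log2 fold change 0.60 ± 0.08 SE, adjusted p 2.26e-06), and the binding protein genes Igfbp3 and Igfbp7 rose by 0.30 and 0.53 on the log2 scale. Igf1r, the receptor of Igf1, was lower at 105 ± 4.27 CPM in the combination libraries and 126 ± 1.66 CPM in the enzalutamide libraries (log2 fold change -0.26 ± 0.05 SE, adjusted p 0.000869), as was the adaptor gene Irs2 (log2 fold change -0.37 ± 0.06 SE, adjusted p 2.38e-05), and Insr, the insulin receptor, was not called (log2 fold change -0.15 ± 0.07 SE, adjusted p 0.127). Among angiogenic factors, Vegfd had 164, 178 and 141 CPM in the combination libraries, against 86.5, 104 and 91.7 CPM in the enzalutamide libraries (log2 fold change 0.77 ± 0.07 SE, adjusted p 3.62e-08), in contrast to Vegfa, and Flt1, a receptor for VEGF-A, had 35.2, 26.4 and 36.3 CPM in the combination libraries, against 75.8, 79.2 and 85.1 CPM in the enzalutamide libraries (log2 fold change -1.29 ± 0.09 SE, adjusted p 3.67e-10). The co-receptor gene Nrp2 was higher (log2 fold change 0.31 ± 0.06 SE, adjusted p 0.000216). Beside Tgfa, the epidermal growth factor receptor ligand Hbegf was lower (log2 fold change -0.43 ± 0.10 SE, adjusted p 0.0033), and Ereg was not called (log2 fold change 0.18 ± 0.12 SE, adjusted p 0.314). Areg (log2 fold change -0.94 ± 0.29 SE, adjusted p 0.0184) and the receptor gene Egfr (log2 fold change 0.17 ± 0.06 SE, adjusted p 0.0373) lost their calls in some alternatives, with adjusted p from 0.00227 to 0.132 and from 0.0155 to 0.131.

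Of other genes that were lower, 3 are of the cytoskeleton. Dpysl3, a microtubule-binding phosphoprotein, had 412, 343 and 395 CPM in the combination libraries, against 697, 676 and 703 CPM in the enzalutamide libraries (log2 fold change -0.85 ± 0.06 SE, adjusted p 8.07e-10). Tubb2b averaged 22.2 ± 2.77 CPM in the combination libraries and 38.3 ± 2.88 CPM in the enzalutamide libraries (log2 fold change -0.78 ± 0.08 SE, adjusted p 9.32e-08), and Tuba1a averaged 169 ± 17.5 CPM in the combination libraries and 239 ± 5.18 CPM in the enzalutamide libraries (log2 fold change -0.49 ± 0.06 SE, adjusted p 3.55e-06). Their groups did not overlap. Some histone genes were higher. Hist1h1c, a linker histone, had 11.2, 12.7 and 9.69 CPM in the combination libraries, against 4.02, 3.85 and 3.68 CPM in the enzalutamide libraries (log2 fold change 1.54 ± 0.30 SE, adjusted p 0.000348). Hist1h2bc averaged 4.26 ± 0.439 CPM in the combination libraries and 2.09 ± 0.436 CPM in the enzalutamide libraries (log2 fold change 1.03 ± 0.30 SE, adjusted p 0.0125), Hist2h2be differed by 0.74 and Hist3h2a by 0.67 on the log2 scale. Most histone messages lack a poly(A) tail, by which these libraries were captured. The calls of these last 3 were lost in 2 alternatives each.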
